A study of Homo sapiens with 24 samples.

Results

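Transcription of 10 genes of the circadian clock was followed in U2OS cells, a human osteosarcoma line, during the first hours of dexamethasone treatment. The genes are PER1, PER2, PER3, CRY1, CRY2, NR1D1, NR1D2, DBP, BHLHE40 and CIART, taken by name from a table of 61533 genes. All 10 were among the 23651 genes with enough counts to be tested for the response to dexamethasone, and 9 were among the 21122 genes tested for the level between lines, where CIART was too low. The cells stably carried the glucocorticoid receptor (GR, the product of NR3C1) fused to HaloTag, expressed from an integrated plasmid. It was wild type (wt GR), the separation-of-function mutant K492A (SoF GR) or the mutant R470A (Ctrl GR). In vitro, K492A loses mainly RNA binding and, to a lesser degree, DNA binding. R470A loses part of its DNA binding in vitro and keeps RNA binding. These affinities were measured on a fragment of GR, and the paper did not test the loss of RNA binding in cells. Each line was 1 sorted pool of cells, picked for like amounts of nuclear GR protein, so the construct and the pool cannot be told apart. Every dish received fresh medium at the start of treatment, with either 0.01% ethanol (0 h) or dexamethasone at 100 nM. Dexamethasone lasted 1, 2 or 3 h in total. In every dish, 200 µM 4-thiouridine was present for 1 h, the last 1 h of each dexamethasone treatment. RNA made during labelling was then purified and sequenced (4sU-seq), with 2 libraries in each of the 12 groups and 24 in all. How long the ethanol dishes were kept is not given, and the time since the medium change and the time in dexamethasone cannot be told apart at any hour.

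The mammalian clock is a feedback loop of transcription. CLOCK or NPAS2 pairs with BMAL1 and activates genes through E-boxes, and the PER and CRY proteins made from some of these genes return to the nucleus and repress that pair. NR1D1 and NR1D2 (REV-ERB receptors) repress BMAL1 and other genes, DBP activates genes through D-boxes, and BHLHE40 and CIART repress E-box transcription. Glucocorticoids reset the phase of the clock in many peripheral tissues and in cultured cells, and PER1 is a well known direct target of GR.

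The promoters of the 4 genes that passed the test against 0 h in at least 1 line are given here to show which clock motifs they hold. They are RefSeq sequences on GRCh38.p14, which lists promoters for all 10 genes. Each is printed 5′ to 3′ on the strand of the gene and ends just before the first base of the transcript, except that PER1 stops 31 bases earlier, where an annotated exon begins. Capitals mark matches, on either strand, to the E-box CACGTG, the E-prime box CACGTT, the D-box TTATGNAA or the GR hexamer AGAACA.
PER1: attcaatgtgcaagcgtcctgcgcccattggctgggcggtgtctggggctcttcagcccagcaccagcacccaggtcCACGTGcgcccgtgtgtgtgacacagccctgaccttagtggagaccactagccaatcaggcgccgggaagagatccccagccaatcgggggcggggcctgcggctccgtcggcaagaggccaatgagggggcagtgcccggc
CRY1: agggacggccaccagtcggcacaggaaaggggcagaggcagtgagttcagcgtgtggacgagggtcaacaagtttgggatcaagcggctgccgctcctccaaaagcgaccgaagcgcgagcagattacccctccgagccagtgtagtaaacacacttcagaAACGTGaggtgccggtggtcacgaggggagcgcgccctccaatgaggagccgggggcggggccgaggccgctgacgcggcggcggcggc
NR1D2: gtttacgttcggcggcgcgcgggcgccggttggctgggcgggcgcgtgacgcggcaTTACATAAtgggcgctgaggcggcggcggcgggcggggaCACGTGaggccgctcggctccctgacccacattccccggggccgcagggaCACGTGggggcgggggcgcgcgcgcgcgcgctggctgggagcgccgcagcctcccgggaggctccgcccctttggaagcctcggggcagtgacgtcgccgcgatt
BHLHE40: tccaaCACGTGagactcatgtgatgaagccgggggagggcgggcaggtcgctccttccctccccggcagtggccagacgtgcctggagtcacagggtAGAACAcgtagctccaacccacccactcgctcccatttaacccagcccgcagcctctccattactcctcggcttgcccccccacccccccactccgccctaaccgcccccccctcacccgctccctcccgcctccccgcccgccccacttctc
The PER1 stretch lies at chr17:8152436-8152654 on the minus strand, that of CRY1 at chr12:107093550-107093799 on the minus strand, that of NR1D2 at chr3:23945871-23946120 on the plus strand, and that of BHLHE40 at chr3:4979187-4979436 on the plus strand. All are intergenic or intronic sequence with no annotated exon base. For NR1D2, RefSeq gives a second start at chr3:23945286, whose promoter held none of the motifs. PER1 had its E-box 173 bases before the start and a D-box 30 bases before it, the latter in the exonic stretch that is not printed. NR1D2 held 2 E-boxes and a D-box, BHLHE40 an E-box and the GR hexamer, and CRY1 an E-prime box. Of the other 6 genes, CIART held 3 E-boxes, PER2, CRY2 and NR1D1 an E-prime box each, PER3 a D-box and DBP none of these motifs. The element of ROR and NR1D receptors, TAGGTCA, was also sought. It occurred in a promoter of CRY2 alone among the 10 genes, and in 1.61% of all promoters. Of 35116 human promoters of 250 bases, 6.34% held the E-box, 4.55% the E-prime box, 3.03% the D-box and 12.4% the GR hexamer. Neither the palindromic GR element, held by 0.327% of promoters, nor the cyclic AMP element TGACGTCA, held by 1.65%, occurred in any of the 13 promoters of the 10 genes. The matches overlap no other motif searched and are letters in a sequence, not measured binding.

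Total counts per library ranged from 8106036 to 15820806. Levels are CPM, counts scaled to a common library total after TMM normalization, and changes are log2 fold changes from edgeR with their standard errors (SE). A gene was called at a Benjamini-Hochberg adjusted p under 0.05 over all genes tested. The bone lineage markers VIM, COL1A1, SPARC, RUNX2 and ALPL were detected in every library, whereas COL1A2, SP7 and BGLAP stayed under 1.33 CPM. The summed level of these 8 genes was 1051 to 2311 CPM, against 2.99 to 11.6 CPM for the sum of EPCAM, CDH1, PTPRC and PECAM1. NR3C1 RNA spanned 341 to 1643 CPM in wt GR cells, 1124 to 5965 in SoF GR cells and 1620 to 7475 in Ctrl GR cells, and it was called higher in both mutant lines (adjusted p = 0.00634 and 0.00261). NR3C1 RNA also moved over time, with averaged changes of 1.07 ± 0.12 from 0 to 1 h, -1.47 ± 0.12 from 1 to 2 h, -0.66 ± 0.12 from 2 to 3 h and -1.06 ± 0.12 from 0 to 3 h (adjusted p = 1.24e-05, 9.53e-09, 0.000680 and 4.25e-07). The part of that receptor RNA in the results below was not tested.

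**Figure D1:**
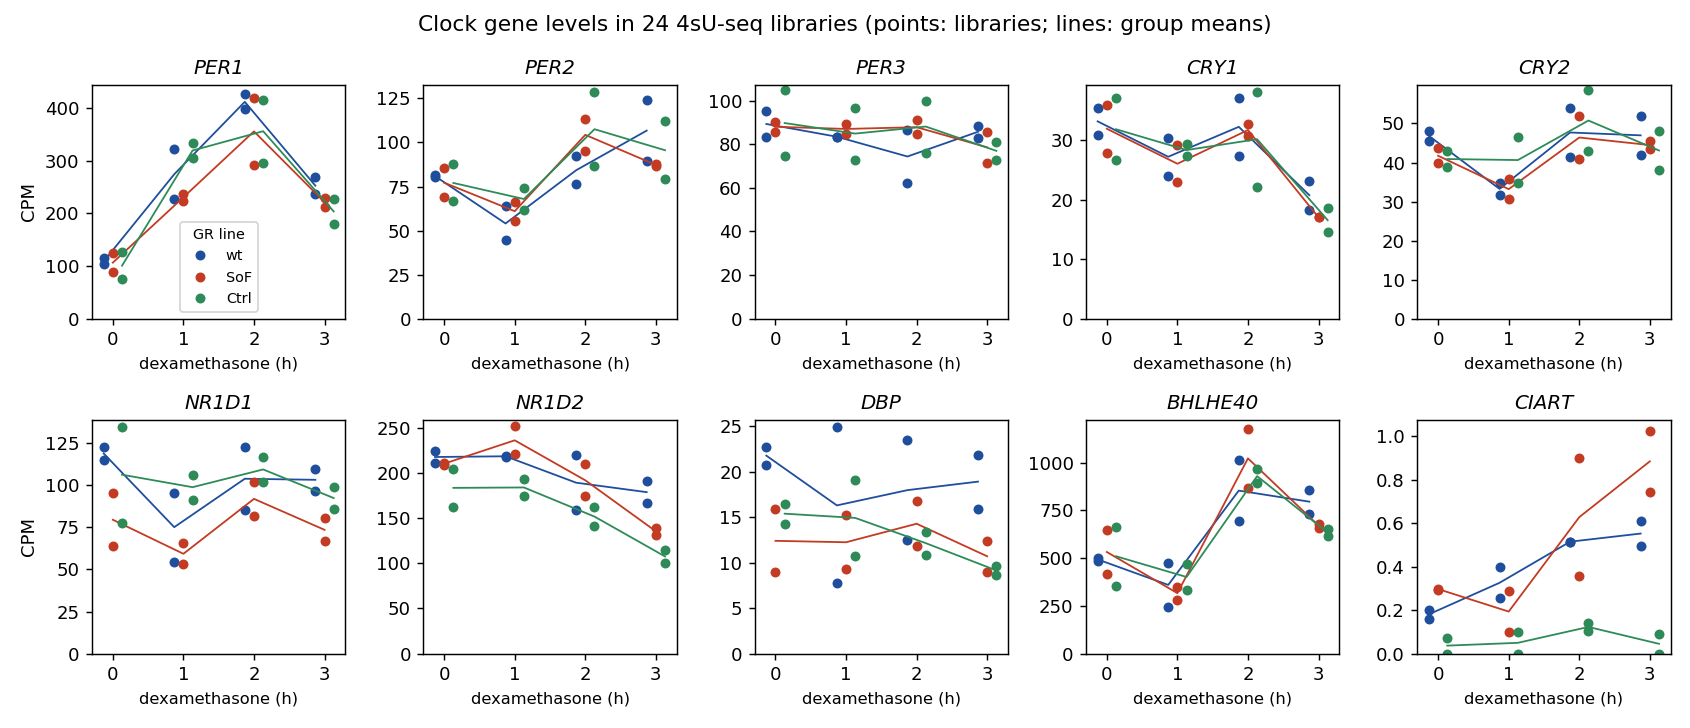
CPM of each clock gene (vertical axes from 0) against hours of dexamethasone, with 1 point per library, colours for the 3 GR lines and lines through the means of 2 libraries. PER1 stood above every 0 h library at 1, 2 and 3 h. The mean of BHLHE40 was highest at 2 h in each line, although its libraries at 2 and 3 h overlapped in wt GR cells. The mean of CRY1 was lowest at 3 h, where its 6 libraries lay between 14.6 and 23.2 CPM.

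PER1, whose product is a core repressor of the clock, was the only one of the 10 genes called at every hour in every line. PER1 (ENSG00000179094.16, chr17:8140472-8156506) measured 114 and 103 CPM at 0 h in wt GR cells, then 227 and 321 CPM at 1 h, 426 and 397 CPM at 2 h, and 237 and 268 CPM at 3 h. In SoF GR cells the libraries held 125 and 87.9 CPM, then 237 and 224 CPM, 419 and 292 CPM, and 230.0 and 212 CPM. The Ctrl GR libraries held 127 and 74.7 CPM, then 334 and 304 CPM, 296 and 415 CPM, and 179 and 228 CPM. No library with dexamethasone overlapped any library at 0 h, in any line. In bulk RNA, fewer cells of one kind and less RNA per cell cannot be told apart.

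At 1 h, PER1 was the only one of the 10 called in each line, against 0.156% of all genes in wt GR cells, 0.165% in SoF GR cells and 0.0465% in Ctrl GR cells. Its log2 change was 1.35 ± 0.22 in wt GR cells (adjusted p = 0.00711), 1.18 ± 0.22 in SoF GR cells (adjusted p = 0.0220) and 1.70 ± 0.23 in Ctrl GR cells (adjusted p = 0.000511). At 2 h the changes were 1.95 ± 0.23, 1.74 ± 0.23 and 1.84 ± 0.23 (adjusted p = 2.28e-05, 3.83e-05 and 3.42e-05). At 3 h they were 1.21 ± 0.22, 1.04 ± 0.22 and 1.02 ± 0.22 (adjusted p = 0.000929, 0.00220 and 0.00376). The mean of PER1 was highest at 2 h in each line, although its libraries at 1 and 2 h overlapped in Ctrl GR cells. The 2 h calls held without any single library. The wt GR call at 1 h was lost without replicate 1 or 2 at 0 h (adjusted p = 0.0983 and 0.0525) or replicate 2 at 1 h (adjusted p = 0.130). The SoF GR call at 1 h was lost without replicate 2 at 0 h or either replicate at 1 h (adjusted p = 0.146, 0.362 and 0.0929), and that at 3 h without replicate 2 at 0 h (adjusted p = 0.0595). The Ctrl GR call at 3 h was lost without replicate 2 at 0 h or at 3 h (adjusted p = 0.113 and 0.0758).

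Averaged over the 3 lines, PER1 rose from 0 to 1 h by 1.41 ± 0.13 on the log2 scale (adjusted p = 4.00e-07) and again from 1 to 2 h by 0.44 ± 0.13 (adjusted p = 0.00762). It then fell by 0.75 on the log2 scale from 2 to 3 h (SE 0.13, adjusted p = 0.000313) and ended 1.09 ± 0.13 above 0 h (adjusted p = 6.97e-07). The 6 libraries of each time spanned 74.7 to 127 CPM at 0 h (median 109), 224 to 334 CPM at 1 h (median 271), 292 to 426 CPM at 2 h (median 406) and 179 to 268 CPM at 3 h (median 229). The ranges of 2 and 3 h did not overlap, and those of 1 and 2 h did. All 4 averaged PER1 calls held without any single library. FKBP5 and ZBTB16, which are GR targets outside the clock, kept rising to 3 h, with averaged changes since 0 h of 3.06 ± 0.13 and 6.03 ± 0.24 (adjusted p = 9.61e-14 and 5.73e-14).

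BHLHE40, a repressor that competes for E-boxes, rose later than PER1. BHLHE40 (ENSG00000134107.5, chr3:4979437-4985323) measured 485 and 501 CPM at 0 h in wt GR cells, then 244 and 476 CPM at 1 h, 694 and 1014 CPM at 2 h, and 734 and 858 CPM at 3 h. In SoF GR cells it was at 650 and 415 CPM, then 351 and 282 CPM, 1179 and 867 CPM, and 682 and 660 CPM. In Ctrl GR cells it was at 665 and 355 CPM, then 468 and 334 CPM, 893 and 966 CPM, and 615 and 653 CPM. In each line both libraries at 2 h lay above both at 0 h and both at 1 h. In wt GR cells the libraries at 2 and 3 h overlapped. From 1 to 2 h, averaged over the lines, it rose by 1.37 ± 0.16 (adjusted p = 9.87e-07), a call that held without any single library.

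Against 0 h, BHLHE40 at 2 h was called in SoF GR cells (0.94 ± 0.28, adjusted p = 0.0449) and Ctrl GR cells (0.89 ± 0.28, adjusted p = 0.0479), and its change was 0.83 ± 0.28 in wt GR cells (adjusted p = 0.0882). With PER1 it made up the 2 of 10 genes called at 2 h in each mutant line, where 5.68% of all genes were called in SoF GR cells and 7.95% in Ctrl GR cells. In wt GR cells 1 of 10 was called, against 4.6% of all genes. Both BHLHE40 calls were close to the threshold, and each was lost in 16 of the 24 fits that left out 1 library. The highest adjusted p came without replicate 2 at 0 h of the line itself, where the change was 0.67 in SoF GR cells (adjusted p = 0.432) and 0.51 in Ctrl GR cells (adjusted p = 0.567). The other lost calls had adjusted p of up to 0.371 in SoF GR cells (without SoF GR replicate 1 at 2 h) and up to 0.237 in Ctrl GR cells (without Ctrl GR replicate 2 at 2 h). Both calls held when the library left out was either wt GR replicate at 1 h, SoF GR replicate 1 at 0 h, or Ctrl GR replicate 1 at 0 or 1 h. The SoF GR call held also without either wt GR replicate at 2 h or Ctrl GR replicate 2 at 0 h, and the Ctrl GR call without SoF GR replicate 2 at 0 h or either SoF GR replicate at 2 h; each other library, left out, ended the call. At 3 h the averaged change since 0 h was 0.44 ± 0.16 (adjusted p = 0.0291), and this call was lost in 8 of the 24 fits, without wt GR replicate 1 or 2 at 0 h or 2 at 3 h, SoF GR replicate 2 at 0 h or 1 or 2 at 3 h, or Ctrl GR replicate 2 at 0 h or at 3 h (adjusted p = 0.0501 to 0.107). At 1 h the averaged change was -0.48 ± 0.16 (adjusted p = 0.171). Without the filter on low counts this decrease was called (-0.52, adjusted p = 2.92e-06), as was that in SoF GR cells (-0.75, adjusted p = 0.000822). From 2 to 3 h the averaged change of BHLHE40 was not called. DESeq2 called it (-0.44, adjusted p = 0.0489), as did edgeR without the filter (-0.42, adjusted p = 0.000155).

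**Figure D2:**
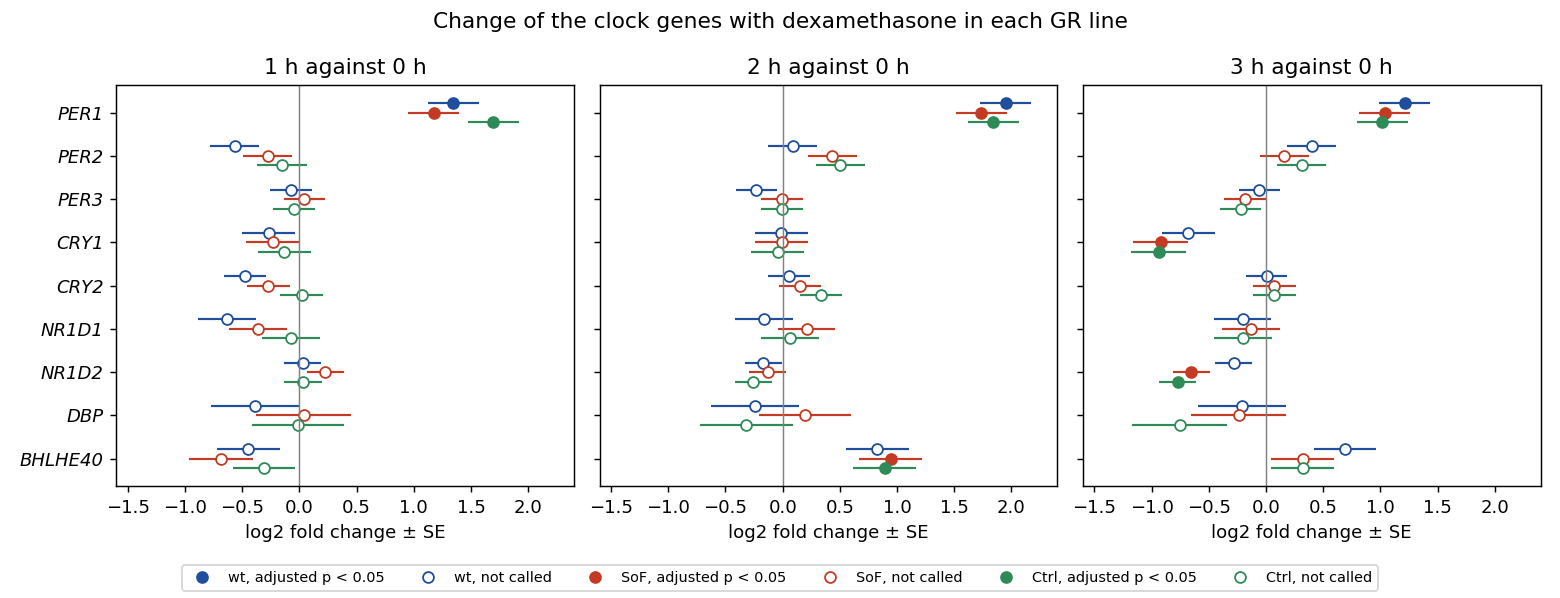
Log2 fold change since 0 h (horizontal axis, bars ± SE) of 9 clock genes in wt, SoF and Ctrl GR cells at 1, 2 and 3 h, with filled points for adjusted p under 0.05; CIART is left out for its low counts. PER1 was filled in all 9 places, with changes between 1.02 and 1.95, and CRY1 and NR1D2 were filled on the lower side at 3 h in the mutant lines.

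CRY1 and NR1D2 had lower levels at 3 h. Of the 10 genes, 3 were called at 3 h in SoF GR cells and 3 in Ctrl GR cells, namely PER1, CRY1 and NR1D2, against 19.3% and 14.2% of all genes, and 1 (PER1) in wt GR cells, against 10.7%. CRY1 (ENSG00000008405.12, chr12:106991364-107093549) encodes the stronger repressor of the CRY pair. It measured 35.5 and 30.9 CPM at 0 h and 23.2 and 18.4 CPM at 3 h in wt GR cells, 27.9 and 36.0 CPM against 17.0 and 17.1 CPM in SoF GR cells, and 26.6 and 37.1 CPM against 14.6 and 18.6 CPM in Ctrl GR cells. Every library at 3 h lay below every library at 0 h. The log2 change was -0.68 ± 0.23 in wt GR cells (adjusted p = 0.0629), -0.92 ± 0.24 in SoF GR cells (adjusted p = 0.00865) and -0.94 ± 0.24 in Ctrl GR cells (adjusted p = 0.0107). The wt GR change was called with a replicate block (adjusted p = 0.0443), from the wt GR libraries alone (adjusted p = 0.0467) and without the filter on low counts (adjusted p = 0.0167). The SoF GR call was lost without replicate 2 at 0 h or either replicate at 3 h (adjusted p = 0.127, 0.0682 and 0.0566), and the Ctrl GR call without replicate 2 at 0 h or replicate 1 at 3 h (adjusted p = 0.199 and 0.126).

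The decrease of CRY1 came in the last hour. Averaged over the lines its change was -0.21 ± 0.13 from 0 to 1 h (adjusted p = 0.476), 0.19 ± 0.13 from 1 to 2 h (adjusted p = 0.252) and -0.83 ± 0.14 from 2 to 3 h (adjusted p = 0.000258). From 0 to 3 h it was -0.85 ± 0.14 (adjusted p = 3.67e-05), and both of these calls held without any single library. The 6 libraries spanned 26.6 to 37.1 CPM at 0 h (median 33.2), 22.96 to 30.4 CPM at 1 h (median 28.3), 22.3 to 38.2 CPM at 2 h (median 31.8) and 14.6 to 23.2 CPM at 3 h (median 17.7).

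NR1D2 (ENSG00000174738.13, chr3:23945286-23980617), a REV-ERB repressor, fell in both of the later steps. It measured 212 and 225 CPM at 0 h and 191 and 167 CPM at 3 h in wt GR cells. In SoF GR cells the values were 212 and 210 CPM at 0 h and 132 and 140 CPM at 3 h, and in Ctrl GR cells 162 and 205 CPM at 0 h and 101 and 114 CPM at 3 h. The groups of 0 and 3 h did not overlap within any line, but the wt GR libraries at 3 h overlapped the Ctrl GR libraries at 0 h. Its log2 change at 3 h was -0.28 ± 0.16 in wt GR cells (adjusted p = 0.293), -0.65 ± 0.16 in SoF GR cells (adjusted p = 0.00707) and -0.77 ± 0.16 in Ctrl GR cells (adjusted p = 0.00296). Averaged over the lines NR1D2 changed by -0.28 ± 0.09 from 1 to 2 h (adjusted p = 0.0182), -0.38 ± 0.09 from 2 to 3 h (adjusted p = 0.00942) and -0.57 ± 0.09 from 0 to 3 h (adjusted p = 4.99e-05).

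The averaged 0 to 3 h call of NR1D2 held without any single library, while others rested on single libraries. At 3 h the SoF GR call was lost without replicate 1 at 3 h (adjusted p = 0.0758), and the Ctrl GR call without replicate 2 at 0 h (adjusted p = 0.0848) or replicate 1 at 3 h (adjusted p = 0.0513). The 2 to 3 h call was lost without wt GR replicate 1 at 2 h (adjusted p = 0.0715). The 1 to 2 h call was lost without wt GR replicate 2, SoF GR replicate 1 or Ctrl GR replicate 1 at 2 h (adjusted p = 0.0826, 0.0804 and 0.0627), or without SoF GR replicate 1 or Ctrl GR replicate 1 at 1 h (adjusted p = 0.0649 and 0.0539).

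PER2, CRY2 and NR1D1 were called in 1 step, that from 1 to 2 h. PER2, the PER paralogue (ENSG00000132326.12, chr2:238244044-238290102), rose by 0.67 ± 0.13 from 1 to 2 h on average (adjusted p = 0.000192), and its libraries spanned 44.4 to 74.0 CPM at 1 h and 76.3 to 128 CPM at 2 h without overlap. This call held without any single library. At 0 h PER2 spanned 66.6 to 87.5 CPM, and the averaged changes were -0.33 ± 0.13 from 0 to 1 h (adjusted p = 0.237) and 0.29 ± 0.12 from 0 to 3 h (adjusted p = 0.0658). Without the filter on low counts both were called (-0.37 with adjusted p = 0.0198, and 0.30 with adjusted p = 0.0203). CRY2 (ENSG00000121671.12, chr11:45847118-45883248) rose by 0.42 ± 0.11 from 1 to 2 h (adjusted p = 0.00319), from 30.7 to 46.6 CPM at 1 h to 40.8 to 58.5 CPM at 2 h, and held without any single library. NR1D1 (ENSG00000126368.6, chr17:40092793-40100589), the other REV-ERB receptor, rose in the same step by 0.39 ± 0.15 (adjusted p = 0.0336). Its ranges were 53.1 to 106 CPM at 1 h and 81.9 to 123 CPM at 2 h, which overlapped. The NR1D1 call was lost without replicate 2 of wt GR or SoF GR at 1 h (adjusted p = 0.126 and 0.0984), replicate 1 of Ctrl GR at 1 h (adjusted p = 0.0850), replicate 1 of wt GR or SoF GR at 2 h (adjusted p = 0.115 and 0.0932) or replicate 2 of Ctrl GR at 2 h (adjusted p = 0.0754). None of PER2, CRY2 and NR1D1 was called against 0 h in any single line at any hour.

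Counted together, the averaged contrasts called 1 of the 10 genes from 0 to 1 h against 1.28% of all genes, 6 from 1 to 2 h against 44.9%, 3 from 2 to 3 h against 10.0%, and 4 from 0 to 3 h against 40.3%. From 1 to 2 h 5 rose (PER1, PER2, CRY2, NR1D1 and BHLHE40), where 22.7% of all genes did, and NR1D2 fell, where 22.1% did. From 2 to 3 h PER1, CRY1 and NR1D2 fell, where 4.57% of all genes did. From 0 to 3 h PER1 and BHLHE40 rose, where 20.9% of all genes did, and CRY1 and NR1D2 fell, where 19.3% did. The shares called from 1 to 2 h and from 0 to 3 h were therefore near those of all genes. The median change of the 10 genes was -0.17, 0.41, -0.28 and -0.05 in these 4 contrasts, beside 0.0096, -0.038, -0.024 and -0.035 for all genes tested.

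PER3 and DBP were not called in any contrast over time. PER3 (ENSG00000049246.15, chr1:7784291-7845177) stayed between 62.3 and 105 CPM in all 24 libraries, and its averaged change from 0 to 3 h was -0.15 with a 95% interval of -0.37 to 0.06. DBP (ENSG00000105516.11, chr19:48630030-48637379), the D-box activator, spanned 7.72 to 24.9 CPM, and its averaged change from 0 to 3 h was -0.40 with an interval of -0.88 to 0.08. Without the filter on low counts DBP was called lower from 0 to 3 h on average (-0.40 ± 0.13, adjusted p = 0.0179) and in Ctrl GR cells (-0.76 ± 0.24, adjusted p = 0.0229). Replicates of DBP lay far apart in wt GR cells, at 24.9 and 7.72 CPM at 1 h and at 23.5 and 12.4 CPM at 2 h. CIART (ENSG00000159208.16, chr1:150282543-150287093) had 94 counts in all libraries together and never exceeded 1.03 CPM. Its change from 0 to 3 h was 1.54 ± 0.69 in wt GR cells (adjusted p = 0.166) and 1.53 ± 0.62 in SoF GR cells (adjusted p = 0.0870), so no response was detectable at this depth.

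Immediate-early genes, which report recent stimulation of the cells, moved over the same hours. For these genes too, dexamethasone and the time since the medium change cannot be told apart. The summed level of FOS, FOSB, JUNB, EGR1, EGR2, EGR3, NR4A1, IER2 and ATF3 was 4870 to 9392 CPM over the 6 libraries at 0 h, 4988 to 9146 CPM at 1 h, 1395 to 2167 CPM at 2 h and 686 to 1012 CPM at 3 h. EGR1 alone changed by -4.75 ± 0.19 on average from 0 to 3 h (adjusted p = 5.73e-14), and all 9 were called lower in that contrast. Of these genes, JUNB alone was called from 0 to 1 h (-0.70 ± 0.15, adjusted p = 0.0164). The part of this decline in the clock gene changes at 2 and 3 h was not tested.

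**Figure D3:**
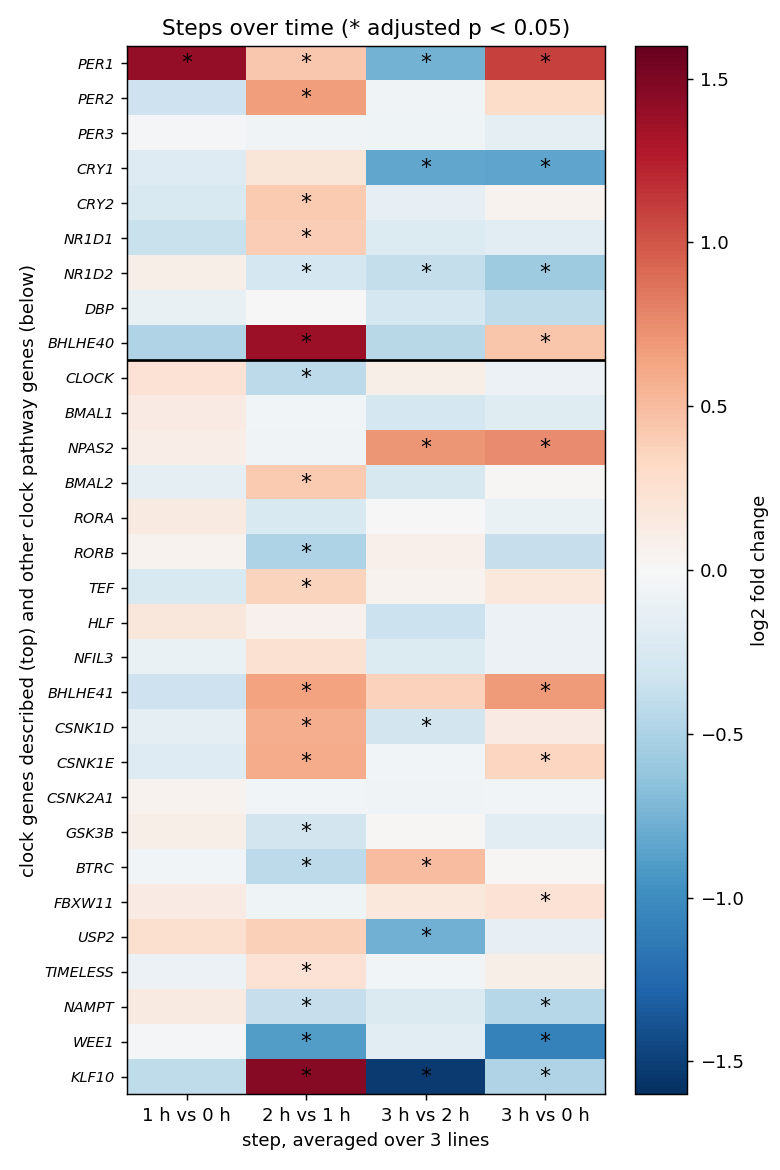
Colour gives the log2 fold change averaged over 3 lines for 9 clock genes (upper block) and 21 other clock pathway genes (lower block) in the steps 0 to 1 h, 1 to 2 h, 2 to 3 h and the whole 0 to 3 h, with stars at adjusted p under 0.05. PER1 alone has a star from 0 to 1 h, at 1.41, and the stars gather in the step from 1 to 2 h.

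The rest of the pathway was read from a list of 22 genes, of which 21 were tested and FBXL21P was too low. None of the 21 was called from 0 to 1 h on average, against 1.28% of all genes. From 1 to 2 h 7 rose and 6 fell, against 44.9% of all genes called in either direction. From 2 to 3 h 2 rose and 3 fell, against 10.0%, and from 0 to 3 h 4 rose and 3 fell, against 40.3%. Among the activators, NPAS2, the CLOCK paralogue, rose by 0.76 ± 0.13 from 0 to 3 h (adjusted p = 9.19e-05) and was called at 3 h in wt GR cells (0.71 ± 0.23), SoF GR cells (0.78 ± 0.23) and Ctrl GR cells (0.77 ± 0.23). CLOCK fell by 0.42 on the log2 scale from 1 to 2 h (SE 0.09, adjusted p = 0.000813), and BMAL2 rose by 0.42 ± 0.10 in that step (adjusted p = 0.00169). BMAL1, RORA and NFIL3, a D-box repressor, were called in none of the 4 averaged contrasts.

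Among the genes read out by the clock, WEE1, a mitotic kinase, was called lower at 2 and 3 h in every line, with changes at 3 h of -0.86 ± 0.19 in wt GR cells, -1.18 ± 0.19 in SoF GR cells and -1.21 ± 0.19 in Ctrl GR cells. KLF10, a zinc-finger repressor, rose by 1.45 ± 0.16 from 1 to 2 h before a change of -1.53 ± 0.16 from 2 to 3 h (adjusted p = 3.90e-07 and 9.81e-07). NAMPT, the enzyme of NAD salvage, changed by -0.46 ± 0.13 from 0 to 3 h (adjusted p = 0.00846). BHLHE41, the paralogue of BHLHE40, rose by 0.64 ± 0.18 from 1 to 2 h (adjusted p = 0.00688) and stood 0.68 ± 0.18 above 0 h at 3 h (adjusted p = 0.00450). Of the kinases that phosphorylate PER proteins, CSNK1D and CSNK1E rose from 1 to 2 h by 0.58 ± 0.09 and 0.59 ± 0.09 (adjusted p = 1.79e-05 and 3.35e-05), while GSK3B fell by 0.30 on the log2 scale (SE 0.08, adjusted p = 0.00725). BTRC, a ubiquitin ligase subunit that binds PER proteins, fell by 0.42 on the log2 scale in that step (adjusted p = 0.00403) and rose by 0.49 ± 0.11 from 2 to 3 h (adjusted p = 0.00499). TEF, TIMELESS and RORB were also called from 1 to 2 h (0.36 ± 0.14, 0.23 ± 0.08 and -0.49 ± 0.17), USP2 and CSNK1D from 2 to 3 h (-0.77 ± 0.23 and -0.29 ± 0.09), and FBXW11, CSNK1E and KLF10 from 0 to 3 h (0.24 ± 0.09, 0.34 ± 0.09 and -0.48 ± 0.16). USP2 was low, with 7 to 43 counts per library. Single lines added KLF10 at 2 h in SoF and Ctrl GR cells (1.14 ± 0.27 and 1.18 ± 0.27) and, in Ctrl GR cells, BTRC and CSNK1D at 2 h (-0.63 ± 0.19 and 0.49 ± 0.15) and NAMPT at 3 h (-0.76 ± 0.23). Of the 44 calls of pathway genes in all comparisons, 23 held without any single library and 34 held in at least 20 of the 24 fits that left out 1 library. Those that held in the fewest were CSNK1D and BTRC at 2 h in Ctrl GR cells (5 and 9 of 24) and FBXW11 from 0 to 3 h (12 of 24).

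The comparison of the 3 lines asks whether the response differs between them. In vitro, the mutants bind RNA and DNA less well (SoF) or DNA alone less well (Ctrl). No clock gene was called in any of the 9 differences of response, where all genes gave 0.0% in 8 and 0.0127% in the difference of SoF and Ctrl GR cells at 3 h. DESeq2 called none of the 10 either. At an unadjusted p under 0.05, 1 of the 90 differences passed, that of NR1D2 at 3 h between Ctrl and wt GR cells (-0.49, 95% interval -0.97 to -0.01, adjusted p = 0.982). Of all 23651 genes tested, 298 to 845 passed that threshold in each difference. For PER1 at 1 h, SoF minus Ctrl was -0.52 (interval -1.17 to 0.13), SoF minus wt was -0.17 (interval -0.82 to 0.47) and Ctrl minus wt was 0.35 (interval -0.30 to 0.99). At 3 h the PER1 differences were 0.02 (interval -0.63 to 0.67), -0.18 (interval -0.82 to 0.47) and -0.20 (interval -0.84 to 0.45). For BHLHE40 at 2 h they were 0.05 (interval -0.75 to 0.85), 0.12 (interval -0.68 to 0.92) and 0.07 (interval -0.73 to 0.87). For CRY1 at 3 h they were 0.02 (interval -0.68 to 0.71), -0.24 (interval -0.93 to 0.44) and -0.26 (interval -0.95 to 0.43). With 2 libraries a group the intervals leave room for differences of up to 1.17 on the log2 scale in PER1 and more in DBP, where the interval at 3 h between SoF and Ctrl GR cells ran from -0.70 to 1.73.

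**Figure D4:**
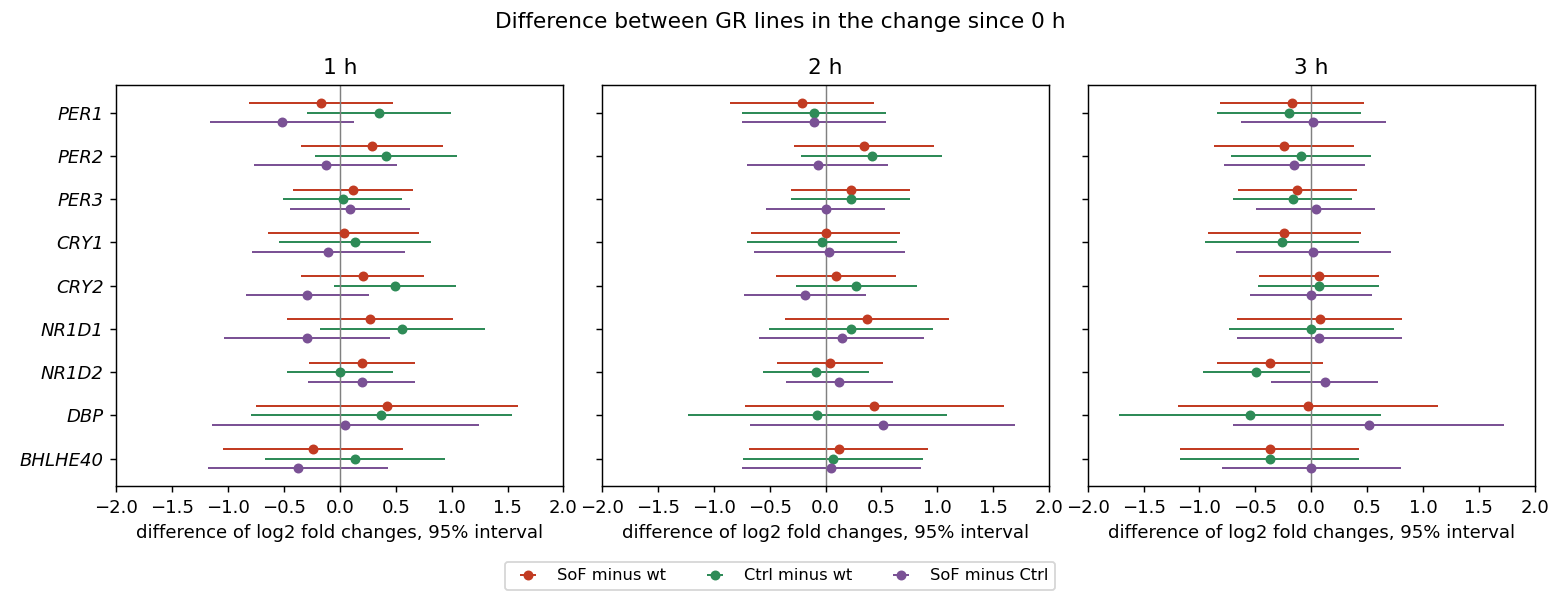
Difference between lines in the log2 change since 0 h (horizontal axis, bars for 95% intervals) of 9 clock genes at 1, 2 and 3 h, for SoF minus wt, Ctrl minus wt and SoF minus Ctrl. All intervals span 0 except that of NR1D2 for Ctrl minus wt at 3 h, which ended at -0.01.

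Across all times, the level of the clock genes was compared between lines with 8 libraries in each. None of the 9 tested genes was called between SoF and wt GR cells, Ctrl and wt GR cells or SoF and Ctrl GR cells, against 8.02%, 4.77% and 3.61% of all genes. In each comparison 2 of 9 had an unadjusted p under 0.05. Of all 21122 genes tested, 5308, 3988 and 3019 passed that unadjusted threshold in the same order. DBP spanned 7.72 to 24.9 CPM in wt GR cells (median 21.3), 8.95 to 16.8 CPM in SoF GR cells (median 12.1) and 8.68 to 19.0 CPM in Ctrl GR cells (median 12.1). Its log2 difference from wt GR cells was -0.56 ± 0.21 for SoF (adjusted p = 0.0941) and -0.52 ± 0.21 for Ctrl (adjusted p = 0.168), and without wt GR replicate 2 at 1 h, its lowest library, both were called (-0.68 with adjusted p = 0.0183, and -0.63 with adjusted p = 0.0403). NR1D1 spanned 54.7 to 123 CPM in wt GR cells (median 103), 53.1 to 102 CPM in SoF GR cells (median 73.6) and 77.8 to 135 CPM in Ctrl GR cells (median 101), and SoF minus wt was -0.37 ± 0.14 (adjusted p = 0.110). Without the same wt GR library this difference was called too (-0.46, adjusted p = 0.0180). With time as an added term in the fit, 2 genes were called in each comparison: NR1D1 and DBP for SoF against wt (-0.37 ± 0.12 and -0.57 ± 0.19, adjusted p = 0.0234 and 0.0272), NR1D2 and DBP for Ctrl against wt (-0.37 ± 0.08 and -0.53 ± 0.19, adjusted p = 0.00311 and 0.0499), and NR1D2 and NR1D1 for SoF against Ctrl (0.32 ± 0.08 and -0.43 ± 0.12, adjusted p = 0.0106 and 0.0178). The shares of all genes given above belong to the fit without that term and are no background for these counts.

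CIART had 41 counts in the 8 wt GR libraries, 47 in the 8 SoF GR libraries and 6 in the 8 Ctrl GR libraries, 3 of which had none. Its library counts ran from 2 to 8, 1 to 12 and 0 to 2 in that order, so that Ctrl GR cells overlapped the others at 1 and 2 counts only. It was too low for the test of levels. DESeq2, which does not apply that filter, gave -2.54 ± 0.70 for Ctrl minus wt (adjusted p = 0.0114) and 2.92 ± 0.70 for SoF minus Ctrl (adjusted p = 0.00193), and edgeR without the filter gave -2.38 ± 0.55 and 2.75 ± 0.54 (adjusted p = 0.0202 and 0.00326). Among the other pathway genes, HLF, a D-box factor, was lower in SoF than in wt GR cells (-1.53 ± 0.33, adjusted p = 0.00519), as was BHLHE41 (-0.90 ± 0.25, adjusted p = 0.0285). HLF was near the floor, with 1 to 20 counts per library and 196 in all libraries together. NAMPT was higher in SoF GR cells than in wt and Ctrl GR cells (0.75 ± 0.17 and 0.76 ± 0.17, adjusted p = 0.00738 and 0.00742), and CSNK2A1 was higher in Ctrl than in wt GR cells (0.23 ± 0.06, adjusted p = 0.0161).

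Levels of different genes can be compared, roughly, per kb of annotated exon. The length takes in the exons of all annotated transcripts of a gene. For DBP it was 6485 bases, most of the gene, so its place in the order depends on that length. At 0 h, over 6 libraries, BHLHE40 led with 146 ± 35.4 CPM per kb (SD, n = 6). NR1D1 (38.7 ± 10.5) and NR1D2 (35.2 ± 3.7 CPM per kb) followed and did not differ beyond their spread. PER1 came next with 15.05 ± 2.98 CPM per kb, then PER2 (11.1 ± 1.22) and PER3 (10.9 ± 1.30), which did not differ beyond their spread, nor did CRY2 (6.96 ± 0.558) and CRY1 (6.76 ± 0.935). The libraries of PER1 and PER2 overlapped. DBP (2.55 ± 0.755) and CIART (0.060 ± 0.042 CPM per kb) closed the order. By 2 h the mean of PER1 had moved to second place with 53.5 ± 8.97 CPM per kb, behind BHLHE40 at 266 ± 46.1 CPM per kb. Its libraries (41.7 to 60.9) overlapped those of NR1D1 (31.1 to 46.7 CPM per kb). By 3 h PER1 (32.3 ± 4.197) and NR1D1 (34.1 ± 5.83) did not differ beyond their spread, and CRY1 (3.80 ± 0.598) lay below CRY2 (7.23 ± 0.781 CPM per kb).

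**Figure D5:**
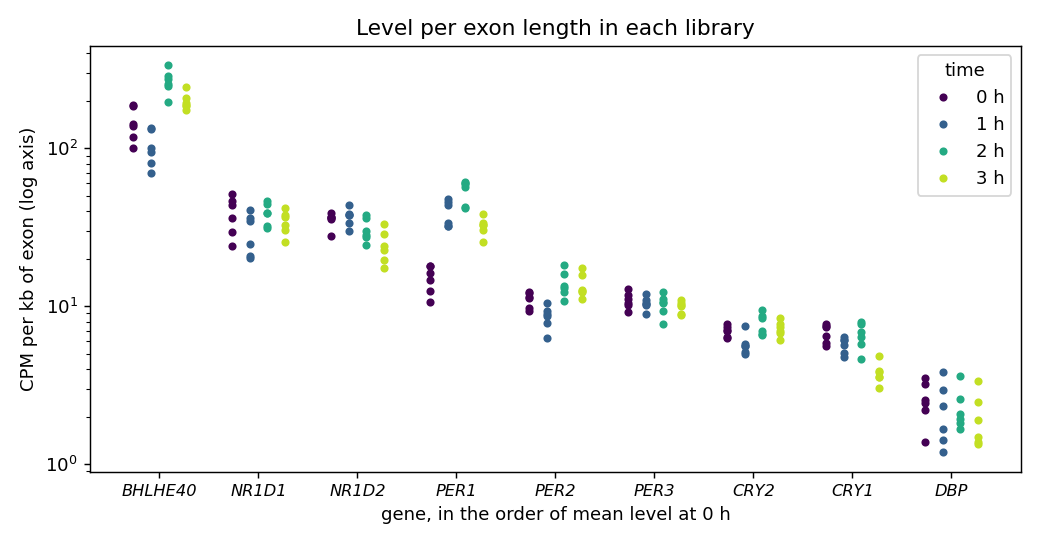
CPM per kb of annotated exon (log axis) of 9 clock genes in each library, in the order of their mean at 0 h, with colours for 0, 1, 2 and 3 h and 6 libraries a time. PER1 stands below NR1D2 at 0 h with a mean of 15.05. At 2 h its mean of 53.5 lies between those of BHLHE40 and the REV-ERB genes, although its libraries overlap those of NR1D1.

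Exons of several of these genes overlap other genes, and that counting kept the strands apart is known just from the table's title. On the opposite strand, NR1D1 shares 473 exon bases with THRA (11.5 to 31.8 CPM), DBP 661 with SPHK2 (9.37 to 19.4 CPM), BHLHE40 451 with BHLHE40-AS1 (1.16 to 4.63 CPM) and PER3 868 with UTS2 (0 to 0.269 CPM). SPHK2 thus had levels near those of DBP itself, though they count all of its exons and not the 661 shared bases alone. The part of SPHK2 reads in the DBP values was not tested, and those values stay uncertain.

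The genes with time courses most like each clock gene were sought by Pearson's r of log2 mean CPM over the 12 groups, among 19689 other genes with a mean of at least 1 CPM. These correlations are descriptions, since the groups share lines, times and controls. For PER1 they were TNNT2 (r = 0.93), ENSG00000266718 (r = 0.92) and MYOSLID (r = 0.91), and for BHLHE40 they were ENSG00000274565, PTTG1IP and MNT (r = 0.98 for each). For CRY1 they were EPPK1, DUSP8 and METTL21A (r = 0.96 for each), and for NR1D2 they were EPHA5 (r = 0.97), HMCN1 and INPP4B (r = 0.96 for both). For PER2 they were LOXL4 (r = 0.97), ENSG00000288620 and IFFO2 (r = 0.96 for both), for CRY2 CD63 (r = 0.97), RAC1 (r = 0.96) and C8orf58 (r = 0.95), and for NR1D1 DNAJB6P1 (r = 0.94), KIAA1522 and YWHAZ (r = 0.93 for both). The closest to PER3 were BCAN (r = 0.89), ENSG00000276071 and RPS27P19 (r = 0.88 for both), and to DBP DNAJC9 (r = 0.93), ENSG00000285053 and FASTKD5 (r = 0.92 for both). Among the clock genes themselves, PER2 was most like BHLHE40 (r = 0.91) and CRY2 (r = 0.89), CRY2 was also like BHLHE40 (r = 0.87), and CRY1 was most like NR1D2 (r = 0.72). PER1 had no r above 0.38 with any of the others, the highest being with BHLHE40.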

How the data were processed

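4sU-seq was carried out on 3 lines of U2OS cells at 4 times, with 2 libraries per group and 24 in all. The authors extracted molecular identifiers with UMI-tools 1.1.2, trimmed with Trim Galore 0.6.6, aligned to hg38 with STAR 2.7.3a, removed duplicates and counted reads in exons with featureCounts. The deposited table holds these raw whole-number counts per gene, with no normalization. Reads were not realigned. Symbols and exon lengths came from GENCODE 44 (99.733% of 61533 identifiers matched without version), promoters from RefSeq (GRCh38.p14).

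Counts were tested in edgeR 4.0.16 (R 4.3.3) with TMM scaling, filterByExpr (minimum count 10, minimum total 15) and the quasi-likelihood F test, with Benjamini-Hochberg adjustment over all genes tested. Responses and their differences came from 1 fit of the 12 groups, and averages give each line equal weight. Levels came from a fit with line alone. The common biological coefficient of variation was 14.2% and 24.0% in the 2 fits. The fit was tested on simulated data. Alternatives were DESeq2 1.42.0, RLE size factors, no filter, a replicate block, each library left out, fewer lines, an added time term and 0 h libraries alone. Total counts of 8106036 to 15820806 set the depth, and the 2 libraries of a group differed by 5.47 to 19.7 times counting error (chi-square per degree of freedom), so none was a duplicate and replicate spread limits precision. The labels do not say whether libraries came from separate cultures, so p-values measure the spread between libraries, which may be technical. According to the paper, replicates of a sample went through biotinylation and pulldown in pairs. Where the 2 libraries of a group shared a pulldown, the p-values leave out the spread between pulldowns. The genes and lists were chosen with earlier results of these data known. Named genes are the 10 members, pathway genes called in any contrast, and the 3 genes most like each member with a mean of at least 1 CPM. Other genes are named from the lists of pathway, marker, immediate-early and check genes, or because their exons overlap a member. Some clock pathway genes were left out of the list and are not reported here. Libraries with the same replicate number deviated together in some pairs of groups and not in others, so the replicate block stayed an alternative.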

Additional observations from a re-analysis of the deposited data

Results flagged for a closer look

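In each line, the lowest or highest of the 8 libraries was compared with the rest by Dixon's gap ratio for the 10 clock genes, which made 30 sets. In 2 sets a library stood apart, both for PER3: wt GR replicate 2 at 2 h was the lowest at 62.3 CPM, and SoF GR replicate 2 at 3 h was the lowest at 71.6 CPM. Chance marks about 1 in 20 sets, and each set spans 4 times. No difference of response between lines was called for a clock gene.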

How the results depend on the processing

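Of the 29 calls of clock genes in the 25 comparisons, 27 held under every alternative other than leaving out a library, and 15 held without any single library. No called value changed sign under any setting. With RLE size factors the count of called clock genes at 2 h went from 2 to 1 in SoF GR cells and from 2 to 1 in Ctrl GR cells, because BHLHE40 missed the threshold (adjusted p = 0.0510 and 0.0525). Without the filter on low counts the count was 2 at 1 h in wt GR cells, 2 at 1 h in SoF GR cells, 2 at 2 h and 3 at 3 h in wt GR cells, 4 for the averaged step from 0 to 1 h, where PER2, BHLHE40 and NR1D1 were added as lower, and 1 for the level of Ctrl against wt and of SoF against Ctrl (CIART). DESeq2 gave 2 at 2 h in wt GR cells (BHLHE40, adjusted p = 0.0409) and 1 in those same level comparisons (CIART). The libraries of wt GR cells alone gave 2 at 3 h (CRY1, adjusted p = 0.0467). An added time term gave 2 in each level comparison. The shares of all genes called under each setting, or with a library left out, are not given beside these counts. The cause of these changes was not tested.

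Leaving out each library gave counts of 0 to 1 at 1 h in wt and SoF GR cells, 1 to 2 at 2 h in each line, 1 to 2 (wt), 1 to 3 (SoF) and 0 to 3 (Ctrl) at 3 h, 1 to 2 from 0 to 1 h, 4 to 6 from 1 to 2 h, 2 to 4 from 2 to 3 h and 3 to 5 from 0 to 3 h on average, and 0 to 2 (SoF against wt) and 0 to 1 (Ctrl against wt) for levels. It gave 0 in every difference of response. Where this left 1 library in a group, its spread was taken from the other groups.

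Replicate numbers are shared between groups. Over 66 pairs of groups the correlation of same-numbered deviations had a median of 0.04 (range -0.22 to 0.57), with 21 over 0.1 and 9 under -0.1. The 3 groups at 0 h deviated together by number (0.39, 0.39 and 0.57), but not every pair of groups did and no label ties the numbers to a shared culture or day, so the numbers were not taken as pairs. With the replicate block the count was 2 at 3 h in wt GR cells (CRY1, adjusted p = 0.0443). The depth limited CIART only, at 0 to 12 counts per library.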
